A study of Mus musculus with 8 samples.

Results

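Polyamine synthesis and its regulators were followed through 10 named genes in activated mouse B cells, all of them matched by symbol among the 15681 genes of the table. The genes were chosen by name, with earlier results of these data known. They are the synthetic enzymes Odc1, Srm and Sms, the antizymes Oaz1 and Oaz2 and the antizyme inhibitor Azin1. The others are the catabolic enzymes Sat1 and Smox and the hypusine enzymes Dhps and Dohh. Transcripts were measured by RNA sequencing in 8 libraries. Splenic B lymphocytes of mice aged 8 to 10 weeks were cultured with lipopolysaccharide (LPS) at 20 µg/ml and interleukin 4 at 20 ng/ml, which drive B cells to divide and to switch antibody class, and were harvested after 72 h. The design has 4 genotypes with 2 libraries each: heterozygous (control), knock-out of Myc (Myc_KO), knock-out of Max (Max_KO) and knock-out of the pair (double_KO). The heterozygous cells are the reference, so every change below is against cells labelled heterozygous, not wild-type. The labels used here name neither the alleles, nor the Cre that deletes them, nor how many mice the 2 libraries of a genotype represent. The p-values therefore reflect library-to-library spread, which may be technical.

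Polyamines are small cations, putrescine, spermidine and spermine, that bind nucleic acids and are needed by dividing cells. Ornithine decarboxylase (Odc1) makes putrescine, and spermidine synthase (Srm) and spermine synthase (Sms) extend it in turn. Antizymes bind ornithine decarboxylase and carry it to the proteasome, antizyme inhibitors release it, and Sat1 and Smox return the longer polyamines to shorter ones. Deoxyhypusine synthase (Dhps) uses spermidine for the first step in building hypusine, and deoxyhypusine hydroxylase (Dohh) completes it. Hypusine is a modified lysine found in the translation factor eIF5A. The regulator Myc pairs with Max to bind the DNA letters CACGTG, and Odc1 is a textbook target of the pair.

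Promoters are shown for the best-known target (Odc1), for both members whose promoter held the Myc-Max letters (Sms and Dohh) and for the member with the largest change (Smox). Each runs 5′ to 3′ from 250 bases before to 50 bases after the RefSeq start in GRCm38.p6, and capitals mark CACGTG, which reads the same on both strands.
Odc1, chr12:17544623-17544922, plus strand: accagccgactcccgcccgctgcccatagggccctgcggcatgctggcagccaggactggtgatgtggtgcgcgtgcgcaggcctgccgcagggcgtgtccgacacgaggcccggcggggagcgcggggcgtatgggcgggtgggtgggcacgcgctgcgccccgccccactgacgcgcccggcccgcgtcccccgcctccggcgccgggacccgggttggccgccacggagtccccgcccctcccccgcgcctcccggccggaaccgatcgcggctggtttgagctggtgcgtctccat
Sms, chrX:157492238-157492537, minus strand: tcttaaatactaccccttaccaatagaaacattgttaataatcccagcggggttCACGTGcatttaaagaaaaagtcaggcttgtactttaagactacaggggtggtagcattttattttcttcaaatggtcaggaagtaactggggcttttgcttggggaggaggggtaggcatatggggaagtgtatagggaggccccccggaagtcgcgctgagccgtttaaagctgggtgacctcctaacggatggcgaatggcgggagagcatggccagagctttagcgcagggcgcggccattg
Dohh, chr10:81384184-81384483, plus strand: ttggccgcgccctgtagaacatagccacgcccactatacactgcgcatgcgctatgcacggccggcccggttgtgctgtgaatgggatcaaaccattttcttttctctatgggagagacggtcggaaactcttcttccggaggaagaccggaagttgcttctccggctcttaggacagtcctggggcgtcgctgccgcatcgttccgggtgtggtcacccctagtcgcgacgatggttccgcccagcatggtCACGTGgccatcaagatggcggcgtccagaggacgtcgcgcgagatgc
Smox, chr2:131491612-131491911, plus strand: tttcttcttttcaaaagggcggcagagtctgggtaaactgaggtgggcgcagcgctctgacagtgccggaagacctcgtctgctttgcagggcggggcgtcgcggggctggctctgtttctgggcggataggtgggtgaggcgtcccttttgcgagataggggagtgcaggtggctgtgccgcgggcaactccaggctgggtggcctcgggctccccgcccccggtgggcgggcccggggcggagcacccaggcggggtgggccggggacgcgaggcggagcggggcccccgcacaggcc
RefSeq lists a second Sms start whose promoter lacks the motif; in the one shown it begins 196 bases before the start and in Dohh 2 bases after it. It was found in 2 of the 8 members with a promoter entry (25%; Srm and Azin1 were not among them), against 12.1% of the 9331 tested genes with an entry and 7.15% of all 32851 promoters. A match is a description of the letters, and the known Myc-Max sites of Odc1 lie in its first intron, outside this window.

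Libraries held 14.88 to 17.91 M estimated reads, and levels are given in RPM, estimated reads per 1000000 of an effective library size. Such levels are relative to the other transcripts of a library. A rise or fall below is therefore not a change in copies per cell, which was not measured. Groups follow the sample titles, which the columns of the table also carry. For double_KO replicate 1 and Myc_KO replicate 2 the description field gives the other of these genotypes. Myc was at 111 and 116 RPM in the controls, 48.3 and 55.8 in Myc_KO, 192 and 176 in Max_KO, and 38.7 and 55.3 in double_KO. Max was at 55.0 and 54.5 in the controls, 70.4 and 59.8 in Myc_KO, 16.4 and 15.5 in Max_KO, and 28.6 and 31.2 in double_KO. Both disputed libraries lay with the group of their title in Max. Counts over a whole gene cannot separate truncated from intact transcripts. Title numbers lie in the 30s or the 40s; both controls are in the 30s and each knock-out group has 1 library in each when grouped by title. Grouped by description, both Myc_KO libraries are in the 30s and both double_KO libraries in the 40s. All 7 B-cell markers were detected, summing to 4910 and 4980 RPM in control cells against 6140 to 7470 elsewhere. The 7 T-cell markers summed to 36.5 to 40.8 against 73.1 to 147 RPM, and the 2 NK-cell markers in the table, of 4 listed, to 0.0606 to 0.187 against 1.72 to 7.44, with Ncr1 at 0 in both controls. The 5 myeloid markers in the table, of 7 listed, had their highest sum, 33.1 RPM, in Myc_KO replicate 1 and their lowest, 14.1, in control replicate 2, and none of 5 erythroid markers was in it. The 5 plasma-cell markers summed to 1210 and 1260 RPM in control cells against 574 to 1100 elsewhere, and transcripts encoded by mitochondrial DNA made up 4.93% to 5.69% against 2.21% to 2.96% of reads. The part of these shifts in the changes below was not tested, and fewer cells of a type cannot be told apart from less RNA per cell.

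In control cells Oaz1 was by far the most abundant of the 10 transcripts per length, at 264 to 283 RPM per kb of annotated exon. Srm followed at 68.5 to 86.9, Odc1 at 51.3 to 55.0, Dohh at 26.8 to 29.9, Azin1 at 22.4 to 22.9, Sms at 20.9 to 21.6, Oaz2 at 18.8 to 20.1, Sat1 at 14.9 to 16.2 and Dhps at 10 to 11.3 RPM per kb. Smox was lowest at 2.06 to 2.96. No neighbours in this order overlapped between the 2 control libraries, but lengths are those of all annotated exons together, so the close steps from Azin1 to Oaz2 depend on which isoforms are made.

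Loss of Myc, Max or both lowered most of these transcripts by modest amounts, with a steep fall of Smox, a rise of Azin1 and no called change of Odc1. In Myc_KO, 6 members fell (Srm, Sms, Oaz1, Oaz2, Smox and Dohh), Azin1 rose and 3 did not pass the test (limma, adjusted p under 0.05 over all 12489 genes tested), where 45.4% of all tested genes were called, 21.4% lower and 24% higher. In Max_KO, 6 fell (Srm, Oaz1, Oaz2, Sat1, Smox and Dohh) and Azin1 rose, beside 39.7% of all genes called, 17.4% lower and 22.3% higher. In double_KO the same 6 fell as in Max_KO and Azin1 rose, beside 38.6% called, 16.8% lower and 21.8% higher. The median log2 change of the 10 members was -0.36 in Myc_KO, -0.40 in Max_KO and -0.39 in double_KO, while that of all tested genes was 0.00, 0.02 and 0.02. The 3 comparisons share the control libraries. Srm, Oaz1, Oaz2, Smox and Dohh fell in all 3, as did 12.1% of tested genes, and Azin1 rose in all 3, as did 17.2%. The counts of members that fell lean on the controls. They were smaller in all 3 groups without either control library, and smallest without control replicate 1. In Max_KO and double_KO they were also smaller when either library of that group was left out. Azin1 rose in all 3 groups under each leave-out. Fewer of all tested genes were also called lower when a library of either compared group was left out, and fewest without control replicate 1. Whether the members dropped more than all genes was not tested. Without control replicate 1 the median log2 change of the members was -0.35 in Myc_KO, -0.35 in Max_KO and -0.29 in double_KO. That of all tested genes was then 0.02, 0.03 and 0.04. With only the 6 libraries whose title and description give the same genotype, the median log2 change of the members was -0.35, -0.40 and -0.35. That of all tested genes was 0.00, 0.02 and 0.03, and Azin1 was higher than control in each group. Myc_KO and double_KO are then 1 library each, whose spread is taken from the other groups. When each library was scaled to its own total, 5, 5 and 4 members fell and Azin1 still rose. Of all tested genes, 1945, 1724 and 1598 were then called lower, against 2677, 2172 and 2095 with the deposited scaling. The median of all genes moved to 0.15, 0.12 and 0.14. The share of called genes that were higher moved with it from 52.8%, 56.2% and 56.6% to 66.4%, 66.7% and 68.9%. By the plainer criterion that both knock-out libraries lie below both controls, 6 members were lower in Myc_KO, 8 in Max_KO and 7 in double_KO, where 37.1%, 35.3% and 35% of tested genes were, and 1 member was higher in each, where 37.9%, 38.3% and 38.6% were. The interaction, the double_KO change minus the sum of the changes of the 2 single knock-outs, was called for 5 members beside 27.3% of tested genes (limma), and its values are given after the results.

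**Figure D1:**
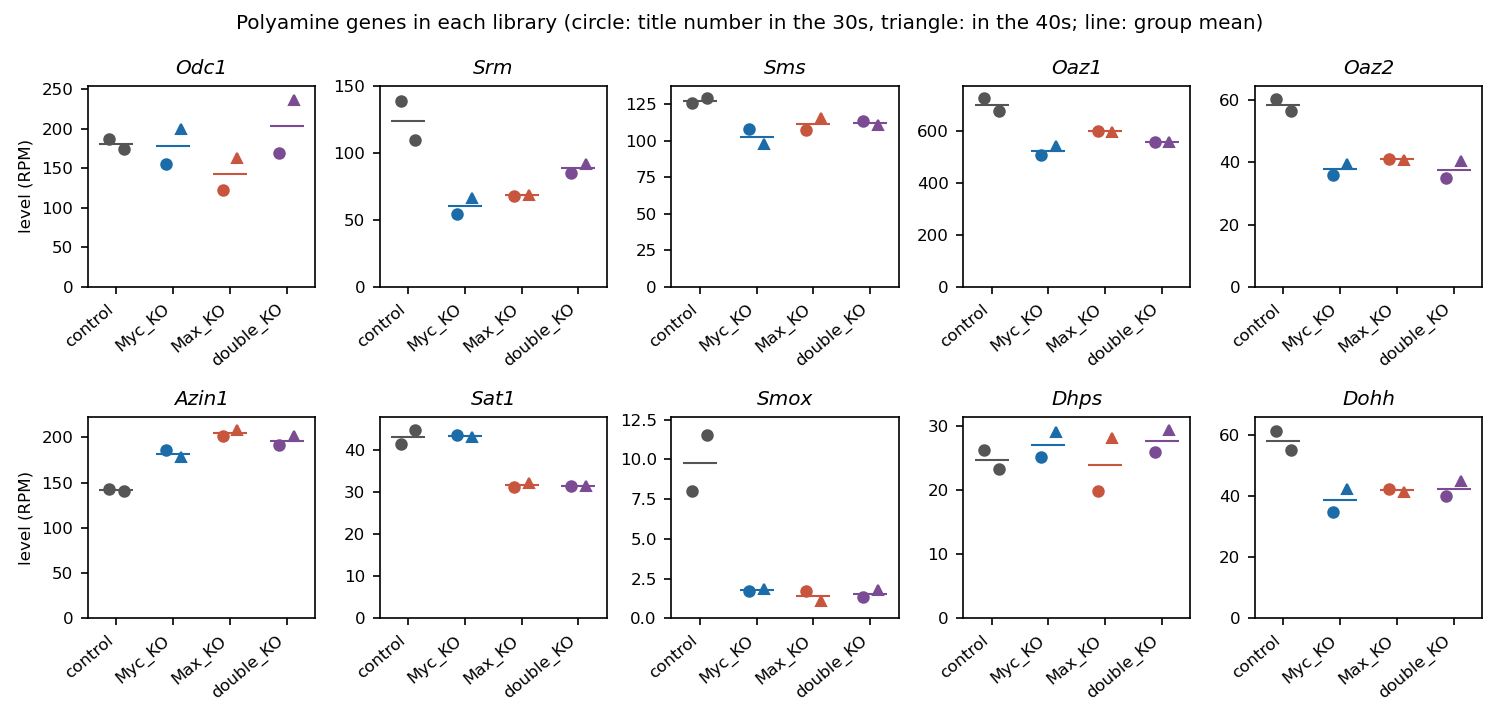
Level of each of the 10 genes (y axis, RPM, from 0) in every library by group (x axis), with circles for title numbers in the 30s, triangles for the 40s and a line for the group mean. Smox drops from 8.03 and 11.5 RPM in the controls to between 1.12 and 1.82 in the knock-out libraries, Azin1 lies above the controls in all 6, and Odc1 overlaps the controls in Myc_KO and double_KO.

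**Figure D2:**
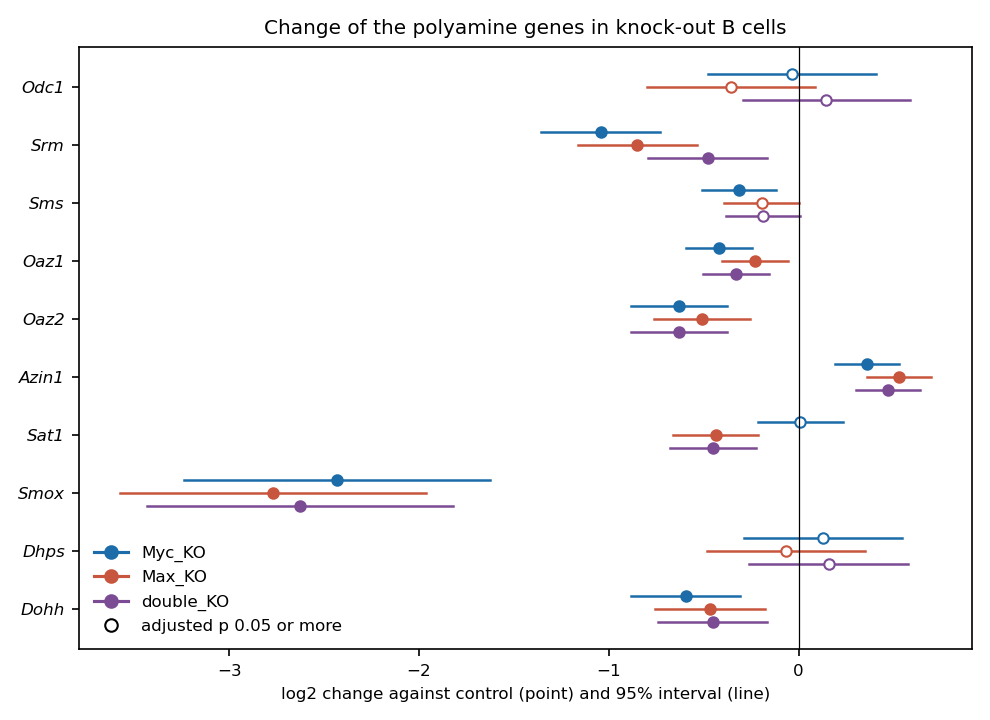
Log2 change against control (x axis) of the 10 genes (y axis) in the 3 knock-out groups, with points for the limma estimate, lines for its 95% interval and open points where the adjusted p was 0.05 or more. The Smox estimates lie between -2.77 and -2.43, Azin1 is the one gene to the right of 0 in all 3 groups with filled points, and the Odc1 intervals all include 0.

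The enzyme that starts the pathway, Odc1 (ENSMUSG00000011179, GRCm38 chromosome 12, 17544794 to 17551505), measured 187 and 175 RPM in control cells. It was at 156 and 200 RPM in Myc_KO, at 123 and 163 in Max_KO, and at 170 and 236 in double_KO. Both Max_KO libraries lay below both controls, while Myc_KO and double_KO overlapped them. The log2 change was -0.04 in Myc_KO (95% interval -0.48 to 0.41), -0.36 in Max_KO (-0.80 to 0.08) and 0.15 in double_KO (-0.30 to 0.59), with limma adjusted p = 0.899, 0.174 and 0.577. All 3 intervals hold both a lower and a higher Odc1 level than in control cells.

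The spread of Odc1 within groups followed the title numbers. In every knock-out group the library numbered in the 40s was above that in the 30s, by 1.28-fold in Myc_KO, 1.33-fold in Max_KO and 1.39-fold in double_KO. Set against the mean of the controls, which both carry numbers in the 30s, the libraries in the 30s were at 0.861 of control in Myc_KO, 0.677 in Max_KO and 0.938 in double_KO, each below both controls. Once the model held a term for the number series, Odc1 was 0.42 ± 0.06 (SE) log2 units higher in the 40s (limma adjusted p = 0.00924), a difference looked at after its values were seen. It was called for 6.84% of tested genes, and Odc1 was the 1 member among them. In that model Odc1 fell in Myc_KO (log2 change -0.24, limma adjusted p = 0.0251) and in Max_KO (-0.56, adjusted p = 0.000697), and was at -0.06 in double_KO (adjusted p = 0.529). The difference between Max_KO and Myc_KO (-0.32, adjusted p = 0.0246) and that between double_KO and Max_KO (0.50, adjusted p = 0.0408) were also called there; without the term they were not (adjusted p = 0.414 and 0.723). The labels do not call the number series a batch, and no control carries a number in the 40s, so the term rests on the knock-out libraries. It takes up the spread that was seen first: the SE of the Odc1 changes against control was 0.19 without it and 0.07 with it. The Odc1 calls made with the term share this limit.

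**Figure D3:**
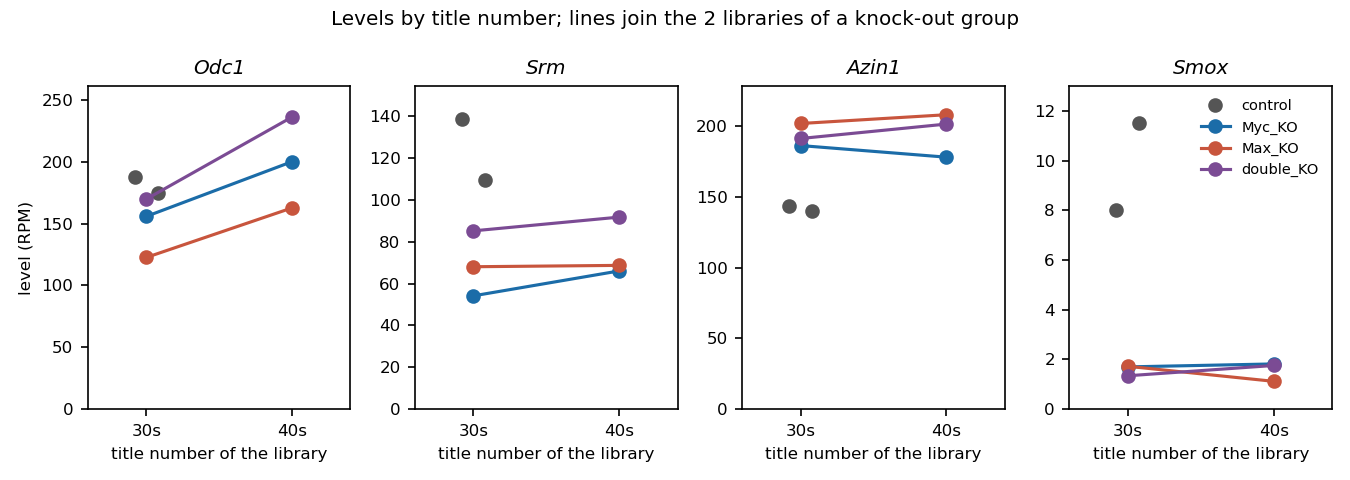
Levels of Odc1, Srm, Azin1 and Smox (y axis, RPM, from 0) by the title number of the library (x axis, 30s or 40s), with lines joining the 2 libraries of each knock-out group and unjoined points for the controls. The 3 Odc1 lines rise from the 30s to the 40s and start below both controls, whereas the knock-out libraries of Srm and Smox lie below the controls in both series and those of Azin1 above them.

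The 5 genes whose log2 values were most like those of Odc1 over the 8 libraries, out of 9534 named genes at a mean of 5 RPM or more, were Trib1 (Pearson r = 0.965), Ergic1 (0.936), Mrpl55 (0.934), Slc7a3 (0.91) and Ska3 (0.905). Trib1 was at 11 and 8.91 RPM in the controls, 8.1 and 14.9 in Myc_KO, 2.94 and 7.37 in Max_KO, and 7.1 and 17 in double_KO. These genes were picked for following Odc1 over the same libraries, so their own rise from the 30s to the 40s is part of that choice. Among the 10 members, Odc1, Srm and Dhps were higher in the 40s in every knock-out group, a share of members to be read beside 24.3% of tested genes.

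Srm (ENSMUSG00000006442, chromosome 4, 148591503 to 148594993), which makes spermidine, fell furthest of the 3 synthetic enzymes. It was at 139 and 110 RPM in the controls, 54.2 and 66.1 in Myc_KO, 68.1 and 68.8 in Max_KO, and 85.3 and 91.9 in double_KO. All 6 knock-out libraries lay below both controls, and both double_KO libraries lay above the other 4. The second separation depends on the titles. By the descriptions double_KO was at 91.9 and 66.1 RPM and Myc_KO at 85.3 and 54.2, which overlap. Srm fell 2.06-fold in Myc_KO (log2 change -1.04 ± 0.14 SE, limma adjusted p = 0.000609), 1.8-fold in Max_KO (-0.85, adjusted p = 0.00214) and 1.39-fold in double_KO (-0.48, adjusted p = 0.0247). The difference between double_KO and Myc_KO (0.56 ± 0.14, adjusted p = 0.141) and that between double_KO and Max_KO (0.37, adjusted p = 0.707) were not called. The calls in Myc_KO and Max_KO held under all 22 alternatives. That in double_KO was lost in the 6 undisputed libraries (adjusted p = 0.0815), with same-total scaling (0.0579), without a mean-variance trend (0.0626), and without control replicate 1 (0.178), double_KO replicate 1 (0.111) or double_KO replicate 2 (0.0595).

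Sms (ENSMUSG00000071708, chromosome X, 157443855 to 157492287), which makes spermine, shifted little. It was at 126 and 130 RPM in the controls, 108 and 97.6 in Myc_KO, 108 and 116 in Max_KO, and 113 and 111 in double_KO, below both controls in all 6 knock-out libraries. It fell 1.24-fold in Myc_KO (log2 change -0.31 ± 0.09, limma adjusted p = 0.018) and was at -0.20 in Max_KO (adjusted p = 0.104) and -0.19 in double_KO (adjusted p = 0.117). The Myc_KO call was lost under 7 of 22 alternatives, among them groups from the description (adjusted p = 0.115), the undisputed libraries (0.122) and same-total scaling (0.148), and without control replicate 1 (0.0708), control replicate 2 (0.0936) or Myc_KO replicate 2 (0.0978). Under groups from the description Sms was instead called in double_KO (log2 change -0.30, adjusted p = 0.0357), and after quantile normalization it was also called in Max_KO (0.0344) and double_KO (0.0378). The ratio of Srm to Odc1 within a library, which no scaling alters, was 0.741 and 0.627 in control cells against 0.331 to 0.556 in the 6 others.

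Both antizyme transcripts fell. Oaz1 (ENSMUSG00000035242, chromosome 10, 80826656 to 80829290), the main antizyme, was at 724 and 675 RPM in the controls, 506 and 541 in Myc_KO, 599 and 594 in Max_KO, and 558 and 554 in double_KO. No knock-out library reached the controls. It fell 1.34-fold in Myc_KO (log2 change -0.42 ± 0.08, limma adjusted p = 0.00281), 1.17-fold in Max_KO (-0.23, adjusted p = 0.0421) and 1.26-fold in double_KO (-0.33, adjusted p = 0.0101). The Max_KO call is marginal: it was lost under 13 of 22 alternatives, with adjusted p up to 0.211, including without control replicate 1 (0.211), control replicate 2 (0.0688), Max_KO replicate 1 (0.104), Max_KO replicate 2 (0.14), double_KO replicate 1 (0.0674) or double_KO replicate 2 (0.0673). That in double_KO was lost in the undisputed libraries (0.0528) and without control replicate 1 (0.0749) or double_KO replicate 2 (0.053).

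Oaz2 (ENSMUSG00000040652, chromosome 9, 65668001 to 65690300), a further antizyme, was at 60.2 and 56.3 RPM in the controls. It was at 36 and 39.3 RPM in Myc_KO, 41.2 and 40.7 in Max_KO, and 35 and 40.4 in double_KO, again below both controls throughout. It fell 1.55-fold in Myc_KO (log2 change -0.63 ± 0.11, limma adjusted p = 0.00237), 1.42-fold in Max_KO (-0.51, adjusted p = 0.00784) and 1.55-fold in double_KO (-0.63, adjusted p = 0.00305). The Max_KO call was lost without control replicate 1 (adjusted p = 0.0652). Processed pseudogenes of Oaz1, Oaz2 and Sms are annotated in GENCODE vM21 and none of them is a row of the table, so the values of these 3 genes may be uncertain, and the effect of such copies was not tested.

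Azin1 (ENSMUSG00000037458, chromosome 15, 38487427 to 38519266) encodes a relative of ornithine decarboxylase without its activity that binds antizyme in its place. It moved opposite to the antizymes. It was at 143 and 140 RPM in the controls, 186 and 178 in Myc_KO, 202 and 208 in Max_KO, and 191 and 201 in double_KO, above both controls in all 6 libraries. Azin1 rose 1.28-fold in Myc_KO (log2 change 0.36 ± 0.07, limma adjusted p = 0.00492), 1.44-fold in Max_KO (0.53, adjusted p = 0.00113) and 1.38-fold in double_KO (0.47, adjusted p = 0.00194), and all 3 calls held under the 22 alternatives. The ratio of Azin1 to Oaz1 within a library was 0.198 and 0.208 in control cells against 0.329 to 0.368 elsewhere, so these groups did not overlap. The ratio of Odc1 to Oaz1 was 0.259 in both controls and ranged from 0.205 to 0.426 elsewhere, on both sides of the controls.

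Of the catabolic enzymes, Smox (ENSMUSG00000027333, chromosome 2, 131491496 to 131525922), which oxidises spermine to spermidine, had the largest change of the 10 genes. It was at 8.03 and 11.5 RPM in the controls, 1.7 and 1.82 in Myc_KO, 1.72 and 1.12 in Max_KO, and 1.34 and 1.76 in double_KO, from 20 reads in the lowest library to 190 in the highest. The groups were far apart. Smox fell 5.40-fold in Myc_KO (log2 change -2.43 ± 0.35, limma adjusted p = 0.000951), 6.82-fold in Max_KO (-2.77, adjusted p = 0.000758) and 6.18-fold in double_KO (-2.63, adjusted p = 0.000952). All 3 calls held under the 22 alternatives, over which the log2 change ran from -3.07 to -1.95.

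Sat1 (ENSMUSG00000025283, chromosome X, 155213132 to 155216449), the acetyltransferase that marks spermidine and spermine for export or oxidation, separated the groups differently. It was at 41.4 and 44.8 RPM in the controls and at 43.5 and 43.2 in Myc_KO, but at 31.3 and 32.3 in Max_KO and at 31.5 and 31.5 in double_KO. The Myc_KO libraries lay between the controls, and the 4 libraries of Max_KO and double_KO lay below all others. Sat1 fell 1.35-fold in Max_KO (log2 change -0.44 ± 0.10, limma adjusted p = 0.00924) and 1.37-fold in double_KO (-0.45, adjusted p = 0.0083). In Myc_KO it was at 0.01 (95% interval -0.22 to 0.24, adjusted p = 0.944). Max_KO was 0.45 log2 units below Myc_KO (adjusted p = 0.0454, beside 4.12% of genes called in that comparison), and Sat1 was the 1 member called there. This call was lost under 15 of 22 alternatives, with adjusted p from 0.018 to 0.675, among them each of the 8 leave-outs of 1 library (0.0689 to 0.204). The difference between double_KO and Myc_KO was of the same size (-0.46) and was not called (adjusted p = 0.105, beside 0.456% of genes called), and between double_KO and Max_KO it was -0.01 (adjusted p = 1, beside 0.04% called). The pattern depends on the disputed libraries. Under groups from the description the log2 change was -0.22 in Myc_KO (adjusted p = 0.386), -0.44 in Max_KO (0.101) and -0.22 in double_KO (0.369), the difference between Max_KO and Myc_KO was -0.22 (0.675), and that between double_KO and Myc_KO was -0.0058 (0.995). Without control replicate 2 the adjusted p was 0.0704 in Max_KO and 0.0651 in double_KO. The ratio of Srm to Sat1 was 3.36 and 2.44 in the controls, 1.24 and 1.53 in Myc_KO, 2.17 and 2.13 in Max_KO, and 2.71 and 2.91 in double_KO.

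The 2 hypusine enzymes differed. Dhps (ENSMUSG00000060038, chromosome 8, 85071757 to 85075162), which acts first, was at 26.3 and 23.3 RPM in the controls, 25.1 and 29.1 in Myc_KO, 19.8 and 28.1 in Max_KO, and 25.9 and 29.4 in double_KO. All groups overlapped, and the log2 changes were 0.13, -0.07 and 0.16 (limma adjusted p = 0.593, 0.796 and 0.522), with 95% intervals from -0.29 to 0.55 in Myc_KO, -0.48 to 0.35 in Max_KO and -0.26 to 0.58 in double_KO. Dhps overlaps the oppositely transcribed gene Wdr83 by 128 bases, and the sources used here do not give the strand setting.

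Dohh (ENSMUSG00000078440, chromosome 10, 81384428 to 81388352), which completes hypusine, was at 61.1 and 54.8 RPM in the controls, 34.7 and 42.2 in Myc_KO, 42.3 and 41.4 in Max_KO, and 40 and 44.8 in double_KO. No knock-out library reached the controls. It fell 1.51-fold in Myc_KO (log2 change -0.60 ± 0.13, limma adjusted p = 0.00574), 1.38-fold in Max_KO (-0.47, adjusted p = 0.0191) and 1.37-fold in double_KO (-0.45, adjusted p = 0.0222). Without control replicate 1 all 3 calls were lost (adjusted p = 0.0549, 0.133 and 0.147). Those in Max_KO were also lost without Max_KO replicate 1 (0.0514) or 2 (0.0776), and those in double_KO in the undisputed libraries (0.0765), with same-total scaling (0.0644) and without control replicate 2 (0.0548) or double_KO replicate 1 (0.116). The ratio of Dohh to Dhps was 2.33 and 2.36 in control cells against 1.38 to 2.13 elsewhere. Dohh shares its span with an annotated same-strand gene, Gm48551, so its reads may not all be its own.

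Further genes of polyamine metabolism, transport and use were read from a list of 23, of which 19 were in the table and 16 were tested. The test called 8 in Myc_KO (4 higher), 9 in Max_KO (5 higher) and 11 in double_KO (6 higher), against the shares of all genes given above. The median log2 change of the 16 was 0.15, 0.23 and 0.28. Azin2, Paox and Eif5a fell in all 3 groups, as did 12.1% of tested genes, and Mtap, Mat2b and Atp13a3 rose in all 3, as did 17.2%.

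The largest fall in the list was that of Azin2, an antizyme inhibitor related to Azin1. It was at 46 and 60.2 RPM in the controls, 6.53 and 9.57 in Myc_KO, 16.3 and 16.2 in Max_KO, and 6.2 and 10.5 in double_KO. All knock-out libraries were far below the controls. It fell 6.63-fold in Myc_KO, 3.23-fold in Max_KO and 6.49-fold in double_KO (limma adjusted p = 0.000202, 0.00251 and 0.00035), calls that held under the 22 alternatives. The 2 antizyme inhibitor genes thus moved in opposite directions, and the ratio of Azin2 to Azin1 was 0.321 and 0.429 in control cells against 0.0324 to 0.0807 elsewhere.

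Eif5a, whose protein carries hypusine, was at 1105 and 973 RPM in the controls, 636 and 675 in Myc_KO, 684 and 687 in Max_KO, and 729 and 788 in double_KO. It fell 1.58-fold, 1.51-fold and 1.37-fold (limma adjusted p = 0.00069, 0.00155 and 0.0053), the last lost after quantile normalization (0.0972). Its relative Eif5a2 was at 11.1 and 10.7 RPM in the controls, 11.2 and 16 in Myc_KO, 20.6 and 29 in Max_KO, and 19.4 and 26.3 in double_KO. Eif5a2 rose 2.23-fold in Max_KO (adjusted p = 0.00671) and 2.06-fold in double_KO (adjusted p = 0.0106), and had a log2 change of 0.29 in Myc_KO (adjusted p = 0.358). In double_KO that call was lost without control replicate 1 (0.0579), control replicate 2 (0.0619) or double_KO replicate 2 (0.0691). The ratio of Eif5a2 to Eif5a was 0.0101 and 0.011 in control cells against 0.0176 to 0.0422 elsewhere.

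Mat2b is the regulatory subunit of the enzyme that makes S-adenosylmethionine, the source of the aminopropyl groups of spermidine and spermine. It rose 1.30-fold in Myc_KO, 1.77-fold in Max_KO and 1.61-fold in double_KO (limma adjusted p = 0.00825, 0.000361 and 0.00076). Mtap, which recycles the by-product of both synthases, rose 1.36-fold, 1.34-fold and 1.58-fold (adjusted p = 0.00571, 0.00958 and 0.00127). Mat2a, the catalytic subunit of that enzyme, rose 1.33-fold in Max_KO and 1.27-fold in double_KO (adjusted p = 0.00608 and 0.0129), and Amd1, which decarboxylates S-adenosylmethionine, rose 1.4-fold in Myc_KO (adjusted p = 0.00505). Amd1 was at 92.7 and 88.9 RPM in the controls, 133 and 120 in Myc_KO, 90.6 and 105 in Max_KO, and 106 and 108 in double_KO. Its near copy Amd2 ranged from 0.144 to 13.3 RPM and varied widely within the control, Max_KO and double_KO groups. Both Myc_KO libraries, at 0.234 and 0.204 RPM, lay below both controls, at 6.775 and 0.359. The split of reads between Amd1 and Amd2 is thus uncertain, and its part in the Amd1 rise in Myc_KO was not tested. Calls were lost for Mat2b in Myc_KO without control replicate 2 (0.0618), for Mtap in Max_KO without control replicate 2 (0.0726) or Max_KO replicate 2 (0.0618), and for Mat2a in Max_KO without control replicate 1 (0.055). For Mat2a in double_KO the call was lost under groups from the description (0.193) and without control replicate 1 (0.096), double_KO replicate 1 (0.0535) or double_KO replicate 2 (0.0584).

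Among the transporters, Atp13a3, a P5B-type transport ATPase of polyamines, rose 1.46-fold, 1.33-fold and 1.61-fold in the 3 groups (limma adjusted p = 0.00145, 0.00732 and 0.00076), the Max_KO call being lost without control replicate 1 (0.0527). Its lysosomal relative Atp13a2 fell 1.54-fold in Max_KO and 1.48-fold in double_KO (adjusted p = 0.00309 and 0.00487) and had a log2 change of -0.30 in Myc_KO (adjusted p = 0.0555). Under groups from the description it was called in Myc_KO (0.0122) and not in double_KO (0.0689). In Myc_KO it was called under 7 of 22 alternatives, among them without Myc_KO replicate 2 (0.0373). Slc7a1, a carrier of arginine and ornithine, rose 1.48-fold in double_KO (adjusted p = 0.0291), a call lost after quantile normalization (0.0681), without a mean-variance trend (0.074), and without control replicate 1 (0.123), control replicate 2 (0.114) or double_KO replicate 2 (0.163).

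Of the remaining genes, Paox, which oxidises acetylated polyamines, fell 1.58-fold, 2.02-fold and 1.88-fold (limma adjusted p = 0.0303, 0.00571 and 0.00939). The Myc_KO call was lost with same-total scaling (0.08) and without control replicate 1 (0.0983), control replicate 2 (0.136) or Myc_KO replicate 1 (0.152), and the double_KO call without control replicate 2 (0.0635) or double_KO replicate 1 (0.0575). Tgm2, a transglutaminase that can attach polyamines to proteins, fell 3.23-fold in Myc_KO and 3.45-fold in double_KO (adjusted p = 0.00457 and 0.00453). In Max_KO it was at -0.92 on the log2 scale (adjusted p = 0.0622), which passed the test under 7 of 22 alternatives, among them without Max_KO replicate 1 (0.0296), Myc_KO replicate 1 (0.0346) or Myc_KO replicate 2 (0.0361). Amd2, Oat, Slc3a2 and Nqo1 passed the test in none of the 3 groups.

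**Figure D4:**
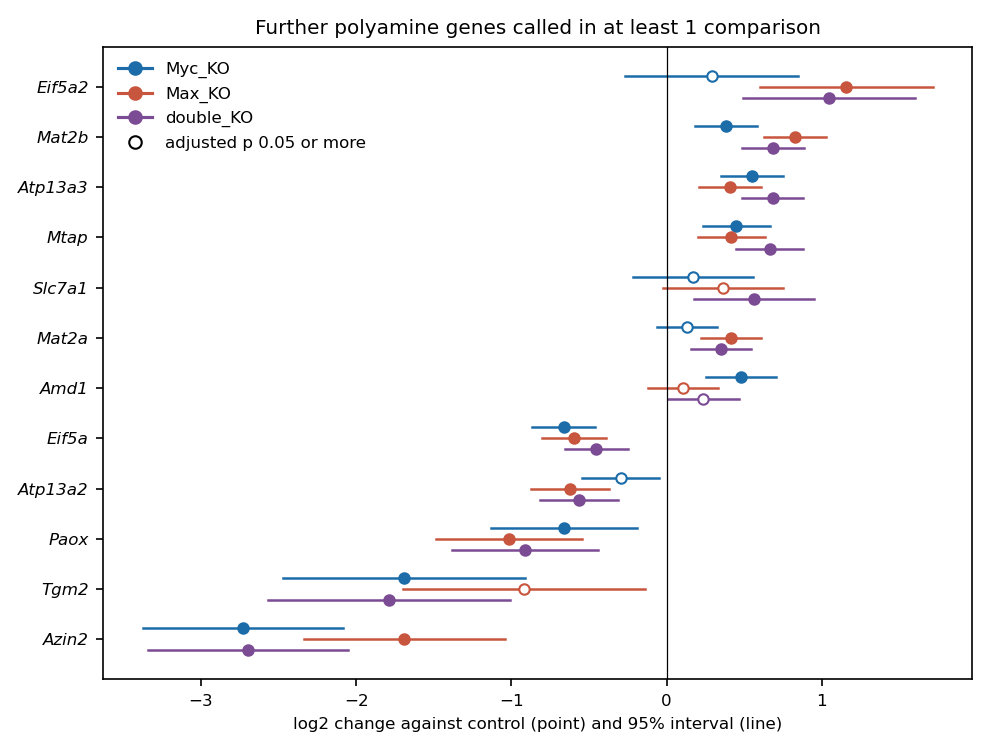
Log2 change against control (x axis) of the 12 further polyamine genes called in at least 1 comparison (y axis, ordered by the change in double_KO), with points for the limma estimate, lines for its 95% interval and open points where the adjusted p was 0.05 or more. Azin2 lies at -2.73, -1.69 and -2.70 in Myc_KO, Max_KO and double_KO, while Mat2b, Mtap and Atp13a3 lie to the right of 0 in all 3.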

How the data were processed

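The authors deposited 1 table of log2 values for 15681 genes in 8 libraries. From its steps, a value is log2 of (estimated reads + 0.5) per 1000000 of an effective library size; taking the lowest value of a library as 0 reads made the others multiples of 0.01 read, from which reads and RPM were recovered. The submitters' processing notes list RSEM 1.2.3, cutadapt, CASAVA 1.8 and the build GRCm38; the annotation, strand setting and gene filter are not stated in the sources used here. Symbols and coordinates came from GENCODE vM21 (15622 genes matched) and promoters from RefSeq.

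The deposited values were fitted as they are with limma 3.58.1 in R 4.3.3 (1 model of 4 groups from the titles, all 8 libraries, mean-variance trend, 4 residual and 4.2 prior degrees of freedom), two-sided, with Benjamini-Hochberg adjustment over the 12489 genes at 1 RPM or more (deposited scale) in at least 2 libraries. The planned test allowed for linear values, and none needed transforming. A count test was not run, since the recovered reads are estimates and not whole. The interaction is double_KO minus Myc_KO minus Max_KO plus control. Intervals are 95%. The fit was tested on simulated data. Python 3.11.15 drew the figures. The members and lists were chosen with earlier results of these data known. Named genes are the members, Myc, Max, up to 12 called genes of the further list by lowest adjusted p, and the 5 most like Odc1 among named genes at a mean of 5 RPM or more. The alternatives were other groupings, scalings, pseudocounts, filters and variance models, a number-series term, a replicate block and leaving out each library, where the lone library of a group is assumed to vary like the others. Replicates of a group are numbered in the order of the table of samples; Wdr83, Gm48551 and Ncr1 were named after their values were seen.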

Additional observations from a re-analysis of the deposited data

Results flagged for a closer look

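The interaction, which asks whether the changes of Myc_KO and Max_KO add up to that of double_KO, was called for 5 of the 10 members, beside 27.3% of all tested genes. In each the double_KO change was smaller than the sum of the other 2. It was 1.41 log2 units for Srm (limma adjusted p = 0.0022, over the alternatives 0.000896 to 0.0549, the highest under groups from the description). It was 2.58 for Smox (adjusted p = 0.00772), called under all 21 alternatives fitted (0.00406 to 0.0421). It was -0.423 for Azin1 (adjusted p = 0.0198, over the alternatives 0.00555 to 0.0794), 0.61 for Dohh (0.0362, 0.0092 to 0.137) and 0.505 for Oaz2 (0.0439, 0.00938 to 0.151). The call was lost for Azin1 under 7 of 21 alternatives, for Dohh under 8 and for Oaz2 under 10, control replicate 1 and control replicate 2 being among the libraries whose omission ended all 3. In Smox both single knock-outs were already at 1.12 to 1.82 RPM, and the part of this low level in its interaction was not tested. For Odc1 the interaction was 0.54 (limma adjusted p = 0.176). With a number-series term, which takes up a spread seen first in the same libraries, it was called (0.75, adjusted p = 0.00133). It also passed the threshold under groups from the description (0.78, adjusted p = 0.0319, and 0.0285 with the replicate block) and in the undisputed libraries (0.96, adjusted p = 0.0377). In both of those settings every Myc_KO library has a number in the 30s and every double_KO library one in the 40s, so genotype and number series cannot be told apart there, and in the undisputed libraries each of these groups is 1 library.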

How the results depend on the processing

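The number of called genes was 5671, 4954 and 4823 in Myc_KO, Max_KO and double_KO, and with 1 library left out in turn it ran from 3353 to 5612, from 2654 to 5027 and from 2654 to 4931. It was lowest without control replicate 1 in each, and also moved by over 1.5 times without control replicate 2 in Max_KO (3053) and double_KO (2942) and without Max_KO replicate 2 in Max_KO (3187). Under the other alternatives it stayed within 1.5 times. With same-total scaling the share of called genes that were higher was 66.4%, 66.7% and 68.9%, against 52.8%, 56.2% and 56.6%.

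Direction changed for no member that passed the test. For Odc1 in Myc_KO the log2 change was 0.11 with same-total scaling and ran from -0.22 to 0.15 with 1 library left out; in double_KO it was -0.061 with the number series as a term and from -0.091 to 0.38, and between double_KO and Myc_KO from -0.056 to 0.42. For Sat1 in Myc_KO it was -0.22 under groups from the description, with and without the replicate block, -0.075 after quantile normalization and from -0.047 to 0.067 with 1 library left out. Between double_KO and Max_KO, Sat1 was at 0.21 under groups from the description, with and without the block, at 0.0024 with same-total scaling and from -0.034 to 0.0090. Dhps was at -0.019 in Myc_KO with the number series as a term, and in Max_KO at 0.040 with same-total scaling and from -0.32 to 0.18. Max in Myc_KO was at -0.28 under groups from the description, with and without the block. In double_KO Max kept its direction but was not called there, at -0.34 (limma adjusted p = 0.526, and 0.411 with the block). By title it was at -0.87 in double_KO (limma adjusted p = 0.000962). Amd1 in Max_KO ran from -0.0030 to 0.21 with 1 library left out, and Slc7a1 in Myc_KO was at -0.00047 with the number series as a term.

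The descriptions number the libraries of each group 1 and 2. Deviations of same-numbered libraries correlated from -0.105 to 0.264 between groups, and the numbers were not taken as pairs. In the Myc_KO and double_KO groups of the descriptions, library 1 is titled double_KO and library 2 Myc_KO. The correlation between these groups, 0.264, therefore cannot separate pairing from the genotype of the titles. Between control and Max_KO, whose labels are not disputed, it was -0.105. With this number as a replicate block on groups from the description, 5704, 5421 and 5841 genes were called, against 5117, 4753 and 5277 without it. Within the description's Myc_KO and double_KO groups the block matches the genotype of the titles, so it may absorb that difference. The part of this in the rise of calls was not tested. Smox, at 20 to 190 reads, is the member whose level rests on the fewest reads.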
